A study of Arabidopsis thaliana with 12 samples.

Results

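RNA was compared between day and night in wild-type (WT) Arabidopsis thaliana of the Col-0 accession, as 3 day libraries against 3 night libraries. These are 6 of the 12 libraries of the series, and the other 6 came from bou-2, a line with a T-DNA insertion in a gene of a mitochondrial carrier. All plants were grown for 35 days under 12 h light and 12 h dark at 3000 ppm CO2 and were moved to ambient CO2 24 h before harvest, so both WT groups had gone through this shift. For each of the 33326 genes of the table the transcript with the highest mean TPM (a level corrected for transcript length and scaled to the same total in each library) over the 6 WT libraries stood for the gene. Of these, 20458 genes (61.4%) had enough counts to be tested. The titles place the day samples at the beginning of the day and the night samples at the end of the night. By the study's methods whole rosettes were taken some 10 min into the light and 3 h ahead of it. By the sample protocols mature leaves were taken 2 h into the light and 2 h ahead of it, and another label field calls the day samples end of day. Light, the warmer temperature of the light phase and the time of day changed together between the groups and cannot be told apart.

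Plants keep time with a circadian clock, a loop of transcription factors in which morning-expressed and evening-expressed proteins repress each other's genes. Light acts on this clock and on its own set of factors through phytochromes, cryptochromes and a UV-B receptor, and at dawn the leaf changes from living on stored starch to fixing carbon. Genes of the photosynthetic antenna are among the classical light-regulated and clock-regulated genes of plants, while starch is broken down in the dark by a set of enzymes whose transcripts are also under clock control.

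The estimated counts summed to between 26561203 and 33046510 per WT day library and between 20553970 and 28313983 per WT night library. The 9 leaf marker genes reached 61760 to 81650 TPM in the day and 65250 to 69630 TPM in the night libraries, whereas the summed levels of root markers (7 genes, 2 of them at 0 in each library) stayed at or below 0.795 TPM, of seed markers (6 genes, 1 at 0 in each library) at or below 1.61 TPM and of flower and pollen markers (8 genes) at or below 2.02 TPM. Guard cell markers (5 genes) summed to 28.3 to 39.5 TPM and vascular markers (8 genes) to 40.0 to 108.2 TPM over the 6 libraries, and no tested gene of the guard cell, vascular and flower lists was called as changed by edgeR (1 higher and 1 lower, both of the guard cell list, at an unadjusted p under 0.05, 1 with DESeq2's Wald test and none with limma). Fewer cells of a type and less RNA per cell cannot be told apart in such bulk samples. On the first principal component of the 6 libraries, which held 30.4% of the variance, the day and night libraries lay apart, and on the second, with 22.1%, WT day replicate 2 lay farthest from the others.

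One library stood apart by chromosome. In WT day replicate 1, the 4272 genes of chromosome 5 with sufficient counts lay at a median 1.49 times their level relative to the other chromosomes in the night libraries, and 91.0% of them were above it. The excess was even along the chromosome, between 1.44 and 1.53 times in each of 10 successive stretches. In the other 11 libraries of the series and on the other chromosomes of this library, the same ratio lay between 0.989 and 1.01. Chromosome copy number was not measured. On chromosome 5, 358 of 4741 tested genes were called higher and 115 lower at day, with a median log2 fold change of 0.162, and without this library 230 higher and 174 lower genes were called of 4780, with a median of -0.005. Of the 358 higher genes, 227 were still called without the library, and 282 when its chromosome 5 counts were divided by the excess. Of the 59 called genes on chromosome 5 in the set of named genes, not all of which are described here, 50 kept their call without this library. Where a standard error is given for a gene of this chromosome, its change without WT day replicate 1 follows if that differed by 0.1 or more on the log2 scale.

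**Figure D1:**
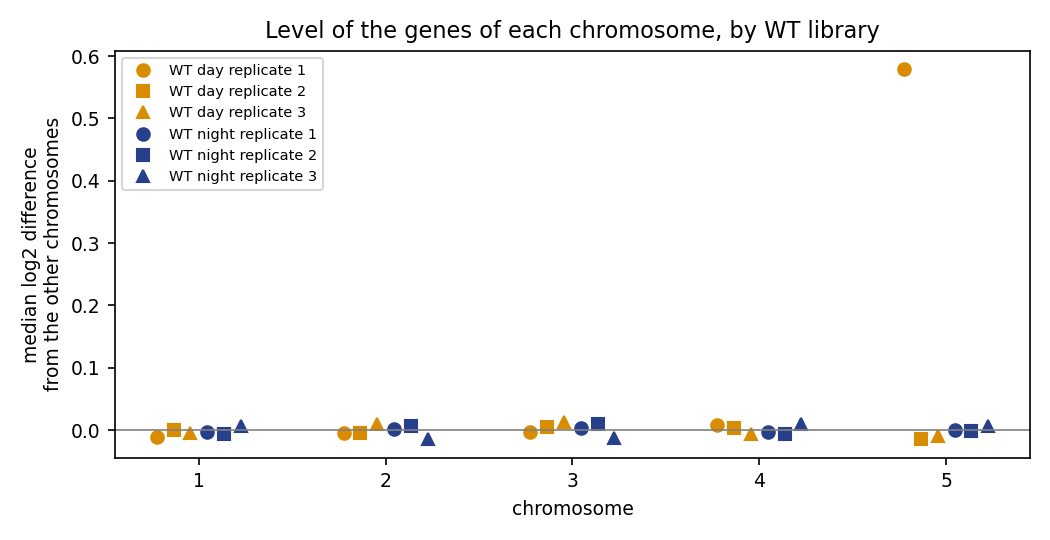
Median log2 difference in level between the genes of each chromosome and those of the other chromosomes, for the 6 WT libraries, with the night libraries as reference. Each point is 1 library, the point for chromosome 5 in WT day replicate 1 lies at 0.579, and all others lie near 0.

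In each of the first 2 WT day libraries a set of transcripts also summed to far more than in the others. The genes of these 2 sets were chosen after their values had been seen. In WT day replicate 2, 7 defence genes that respond to jasmonate and ethylene summed to 42660 TPM, against 164 and 424 TPM in the other day libraries and 428 to 1825 TPM at night. The plant defensin PDF1.2 (AT5G44420) stood at 42.9, 16586 and 119.6 TPM at day and 503, 114 and 580.1 TPM at night, and its change was 3.94 on the log2 scale (adjusted p = 0.196), or -2.10 without WT day replicate 2. The near-identical PDF1.2b and PDF1.2c, with which reads may be shared, followed the same pattern. In WT day replicate 1, 5 genes of the abscisic acid and late embryogenesis abundant (LEA) kind, which are known for their response to drying, summed to 1264 TPM against 35.0 and 61.5 TPM in the other day libraries and 15.5 to 36.6 TPM at night. Among them RAB18 (AT5G66400), a dehydrin, reached 825, 17.3 and 26.7 TPM at day and 16.4, 12.7 and 28.2 TPM at night. RD29B (AT5G52300) reached 88.9, 0.394 and 3.99 TPM at day and 0.218, 0.0354 and 0.0670 TPM at night and was called (log2 fold change 8.30, adjusted p = 0.0279), but not without WT day replicate 1 (log2 fold change 4.64, adjusted p = 0.0603), nor without any 1 of the 3 night libraries (adjusted p up to 0.108). HAI1 (AT5G59220), a phosphatase of abscisic acid signalling, was higher in every day library than in any night library, with 75.5, 14.1 and 23.5 TPM at day and 2.85, 1.57 and 3.88 TPM at night, and kept its call without WT day replicate 1 (log2 fold change 2.93, adjusted p = 0.00136). Genes more than 2-fold above both other libraries of their group numbered 320 of 14491 in WT day replicate 2, 115 in replicate 1 and 12 in replicate 3, and those more than 2-fold below both others 81, 81 and 170 in replicates 1, 2 and 3. The part of these sets in other results was tested only by leaving each library out.

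Between night and day, 1142 genes rose and 794 fell in WT at an adjusted p under 0.05 (quasi-likelihood test of edgeR, adjusted by Benjamini-Hochberg), which is 5.58% and 3.88% of the genes tested. The median change over all tested genes was 0.0106 on the log2 scale, that of the genes called higher 0.855 and that of those called lower -0.714. Large changes were mostly rises, since 453 genes rose and 231 fell by at least 1 on the log2 scale, 122 rose and 31 fell by at least 2, and 40 rose and 10 fell by at least 3. The 3 day and 3 night libraries did not overlap for 2621 genes that were higher at day and 2612 that were lower, 12.8% of all tested genes in each direction. The share called higher grew with the level of the gene, from 0.834% among genes under 1 TPM to 8.26% between 20 and 100 TPM and 10.4% above 100 TPM. The share called lower was 0.245% under 1 TPM, highest between 20 and 100 TPM (5.34%) and 4.16% above 100 TPM. On chromosomes 1 to 4 alone, 784 genes were called higher and 679 lower of 15607, with a median of -0.0345. Without WT day replicate 1 these were 773 and 446 of 15797, with a median of 0.00978. Over all chromosomes that fit called 1003 higher and 620 lower. The balance of the calls was not the same in limma on log2(TPM + 1), which changes both the test and the scaling and gave 729 higher and 1607 lower genes, 31.2% higher against 59.0% here, with the median of all genes shifted by -0.108 on the log2 scale. The spread was estimated over all 12 libraries, those of bou-2 included, and a fit of the 6 WT libraries alone called 424 higher and 267 lower. Of the 202 called genes in the set of named genes, 80 were not called in that fit. Of these, 25 were lost in no other alternative at an adjusted p under 0.05, among which CRY2, TEM2, PSAH2, VDE, GBSS1, GWD1, NRT1.1, MYB34, GOLS1, HAT2, EXPA1, VTC2, MT2A and THIC are described below. The counts also depended on the night libraries, and 617 higher and 419 lower genes were called without WT night replicate 1, 666 and 517 without replicate 2, and 809 and 469 without replicate 3. Since the labels give no more than that the libraries of a group are replicates, the p-values reflect only the spread among the libraries themselves, which may be technical.

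**Figure D2:**
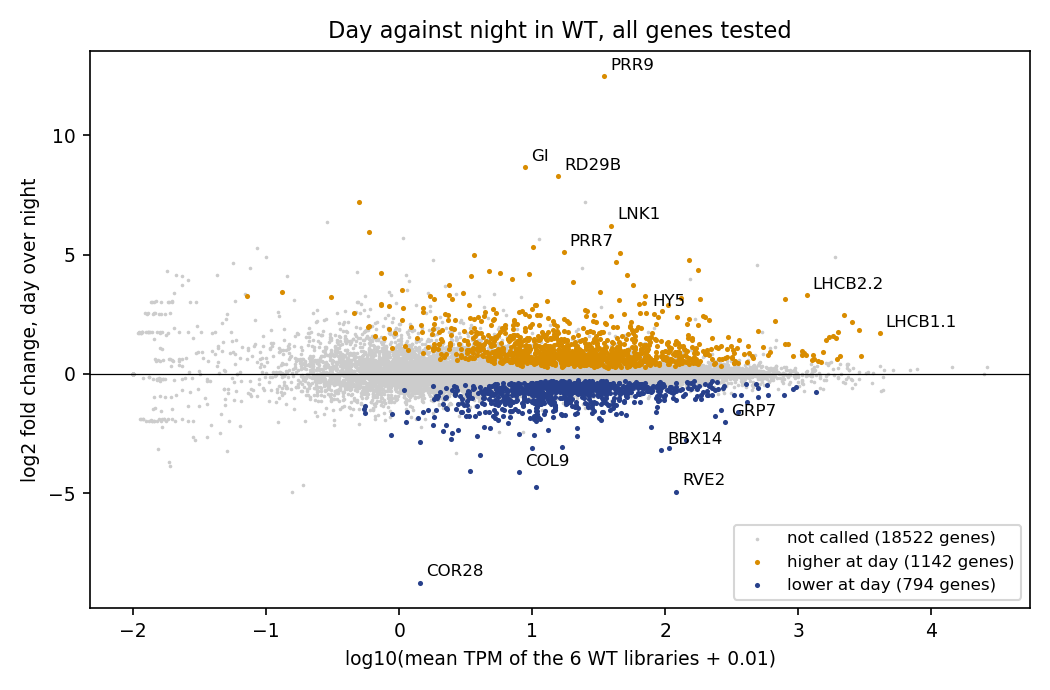
Log2 fold change of day over night for the 20458 genes tested (vertical axis) against log10 of the mean TPM of the 6 WT libraries plus 0.01 (horizontal axis). The 1142 genes called higher at day and the 794 called lower are coloured, and PRR9 lies highest, at 12.49.

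Clock genes were among the largest changes in both directions. Of 17 morning clock genes, 11 rose and 3 fell, with a median log2 fold change of 1.15, beside 5.58% and 3.88% of all genes and a median of 0.0106. PRR9 (AT2G46790, chr2:19232607-19235179 on TAIR10.1), a pseudo-response regulator that represses CCA1 and LHY in the morning, stood at 68.1, 70.2 and 71.0 TPM at day and 0.0264, 0.0143 and 0 TPM at night. It was thus close to absent at night and even among the day libraries. Summed over the libraries it had 9387 estimated counts at day and 1 at night, a ratio of levels of 7350 with an exact counting interval of 1320 to 290000, which covers counting error only, and the log2 change fitted by edgeR was 12.49 with an adjusted p of 1.08e-07 (standard error 0.41). LNK1 (AT5G64170), a coactivator that works with REVEILLE factors, had 85.4, 72.7 and 71.8 TPM at day and 1.31, 1.19 and 0.875 TPM at night (log2 fold change 6.22, standard error 0.35, adjusted p = 2.91e-06). PRR7 (AT5G02810), which follows PRR9 in the daily sequence, had 37.5, 33.9 and 28.6 TPM at day and 0.947, 1.09 and 1.101 TPM at night (log2 fold change 5.10, standard error 0.23, adjusted p = 7.01e-07). For both, which lie on chromosome 5, the groups were far apart, and the change without WT day replicate 1 was 6.18 and 5.06.

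The other members of the LNK family rose as well. LNK2 (AT3G54500) had 215, 202 and 196 TPM at day and 40.0, 42.6 and 45.2 TPM at night (log2 fold change 2.38, standard error 0.11, adjusted p = 7.01e-07), LNK3 (AT3G12320) rose by 2.88 and LNK4 (AT5G06980) by 4.16 on the log2 scale. Among the REVEILLE genes, which encode MYB-like factors related to CCA1, the directions were split. RVE3 (AT1G01520) had 148, 107 and 125 TPM at day and 13.9, 12.9 and 16.5 TPM at night (log2 fold change 3.25, standard error 0.14, adjusted p = 6.70e-07), and RVE7 (AT1G18330) and RVE6 (AT5G52660) rose by 2.21 and 1.15. RVE8 (AT3G09600), an activator of evening genes, rose by 0.52 (adjusted p = 0.0116), a call lost without WT night replicate 1 or 2 (adjusted p up to 0.0573). RVE2 (AT5G37260, chr5:14751344-14753088) was the gene with the largest fall under the rule for named genes, with 9.86, 5.80 and 5.48 TPM at day and 225, 228 and 248 TPM at night (log2 fold change -4.94, standard error 0.25, adjusted p = 1.20e-06, or -5.21 without WT day replicate 1). RVE1 (AT5G17300), which links the clock to auxin, fell from 123, 122 and 146 to 27.7, 25.6 and 22.8 TPM (log2 fold change -2.24, standard error 0.10, adjusted p = 6.70e-07). For RVE1, RVE2 and RVE3 every day library lay on one side of every night library.

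The core pair changed less. LHY (AT1G01060) had 191, 168 and 166 TPM at day and 98.9, 103 and 133 TPM at night (log2 fold change 0.77, standard error 0.14, adjusted p = 0.00539), with no overlap of the groups. CCA1 (AT2G46830), its partner, had 228, 237 and 236 TPM at day and 186, 187 and 226 TPM at night and did not pass the test (log2 fold change 0.35, adjusted p = 0.0909), although its highest night library lay just under its lowest day library. Both transcripts were thus already at 98.9 TPM or more at night. RVE4 (-0.12, adjusted p = 0.764) and RVE5 (0.36, adjusted p = 0.198) did not pass either. PRR5 (AT5G24470), the regulator that acts after PRR7, fell with 1.48, 0.637 and 0.236 TPM at day and 3.69, 2.90 and 4.40 TPM at night (log2 fold change -2.14, standard error 0.47, adjusted p = 0.0171, or -2.93 without WT day replicate 1). This call was lost without WT night replicate 1 or 3 (adjusted p up to 0.0572).

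Of 14 evening clock genes, 6 fell and 2 rose, with a median of -1.54, and the summed level of the list was 277, 285 and 254 TPM at day against 761, 671 and 587 TPM at night (two-sided exact permutation p = 0.1, the smallest that 3 against 3 libraries allow). TOC1 (AT5G61380), the evening repressor that closes the loop on CCA1 and LHY, had 5.75, 3.74 and 2.89 TPM at day and 17.0, 17.9 and 16.7 TPM at night (log2 fold change -1.95, standard error 0.17, adjusted p = 6.54e-05, or -2.22 without WT day replicate 1). ELF3 (AT2G25930), a scaffold of the evening complex, had 5.03, 5.06 and 4.35 TPM at day and 15.7, 17.0 and 18.3 TPM at night (log2 fold change -1.70, standard error 0.10, adjusted p = 3.62e-06). NOX (AT5G59570), a MYB-like partner in that complex, had 0.415, 0.783 and 0.587 TPM at day and 3.62, 4.37 and 4.96 TPM at night (log2 fold change -2.72, standard error 0.33, adjusted p = 0.00054, or -2.49 without WT day replicate 1). In all 3 genes the highest day library lay below the lowest night library. The RNA-binding protein gene GRP7 (AT2G21660), a slave oscillator of the clock, went from 538, 467 and 372 TPM at night to 96.1, 105 and 111 TPM at day (log2 fold change -2.01, standard error 0.22, adjusted p = 0.0003). JMJD5 (AT3G20810), a histone demethylase, fell by 1.84 (adjusted p = 0.0114), and ELF4 (AT2G40080) by 2.15 on the log2 scale (adjusted p = 0.0193), the latter a call lost without WT day replicate 3 or WT night replicate 2 or 3 (adjusted p up to 0.0679).

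GI (AT1G22770) was one of the 2 evening genes that rose, with 19.3, 18.2 and 14.9 TPM at day and 0.0542, 0.0541 and 0.0308 TPM at night (log2 fold change 8.67, standard error 0.27, adjusted p = 9.75e-08). GIGANTEA is a light-stabilised partner of the F-box photoreceptor ZTL, and its transcript is known to rise through the day. ZTL (AT5G57360) itself had 42.4, 28.1 and 26.5 TPM at day and 24.0, 21.3 and 25.8 TPM at night and rose by 0.56 (0.37 without WT day replicate 1), a call lost without any 1 of the night libraries (adjusted p up to 0.107). LUX, PRR3, FKF1, LKP2, CHE and GRP8 did not pass the test, and LUX, PRR3 and FKF1 were at most 2.02 TPM in any library. The high PRR9 and low TOC1 of the day libraries, with GI at a mean of 17.5 TPM, are levels known from the first hours of light, whereas at the end of the day PRR9 and the LHY and CCA1 pair are known to be low. The clock levels thus went with the titles and not with the field that names the end of the day.

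**Figure D3:**
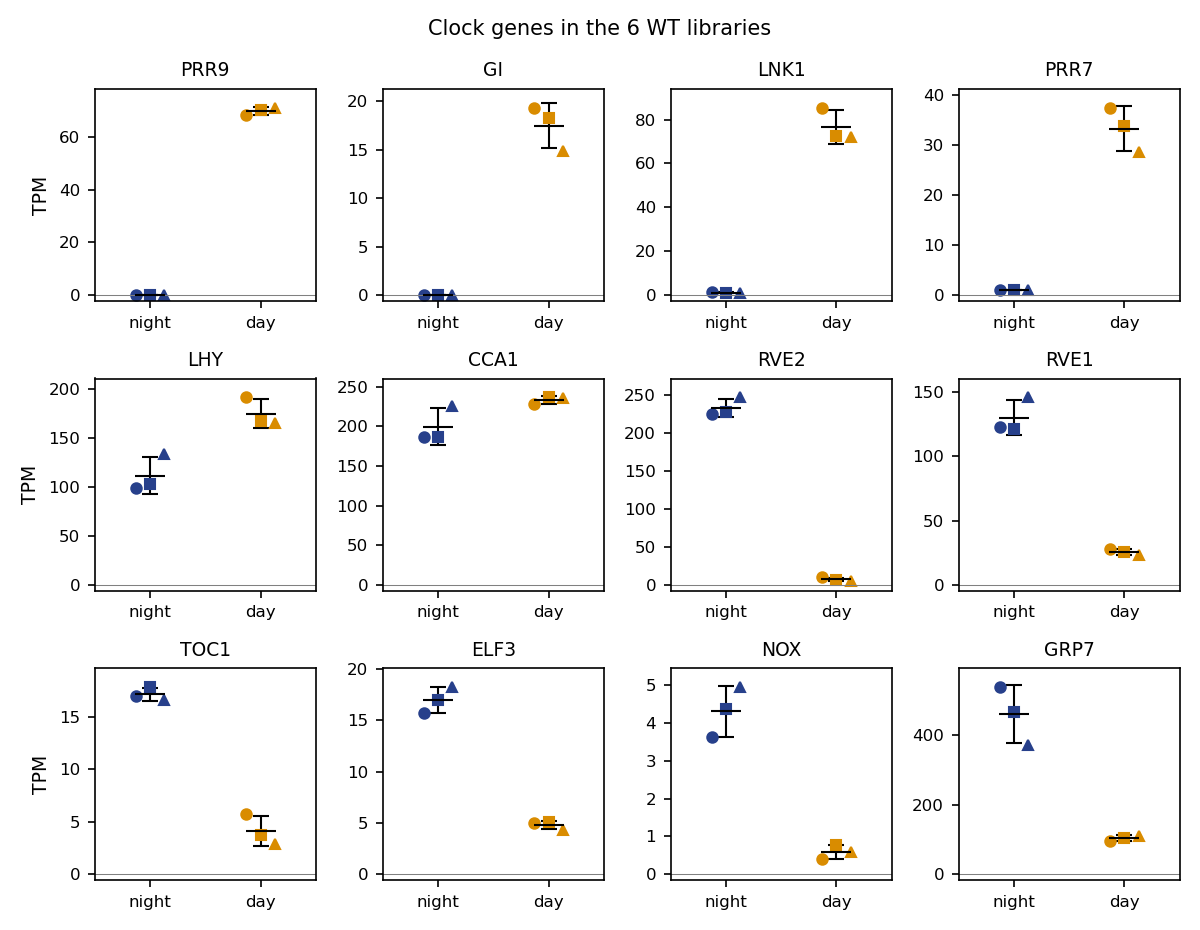
TPM of 12 clock genes in the 3 night and 3 day libraries of WT. Each symbol shape is 1 replicate number, and bars mark the mean with its standard deviation. PRR9, GI, LNK1 and PRR7 lie near 0 at night and well above it at day, RVE2, RVE1, TOC1, ELF3, NOX and GRP7 lie lower at day, and CCA1 shows the smallest gap.

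Of 22 light signalling factors, 12 rose and 2 fell, with a median of 0.443. HY5 (AT5G11260), the bZIP factor that promotes the light programme, had 153, 108 and 101 TPM at day and 22.0, 20.1 and 23.5 TPM at night (log2 fold change 2.57, standard error 0.15, adjusted p = 2.97e-06, or 2.42 without WT day replicate 1). The genes of its counterparts, the PHYTOCHROME INTERACTING FACTORs that promote growth in darkness, were higher at day as well. PIF4 (AT2G43010) had 13.9, 10.8 and 14.8 TPM at day and 0.827, 0.911 and 0.973 TPM at night (log2 fold change 3.98, standard error 0.18, adjusted p = 6.70e-07). PIF5 (AT3G59060) had 58.3, 53.5 and 56.7 TPM at day and 12.0, 15.4 and 14.8 TPM at night (log2 fold change 2.12, standard error 0.17, adjusted p = 3.06e-05). No day library of HY5, PIF4 or PIF5 reached down to a night library. ELIP1 (AT3G22840), an early light-induced protein of the thylakoid, had 419.5, 157 and 172 TPM at day and 35.8, 67.0 and 57.3 TPM at night (log2 fold change 2.32, standard error 0.35, adjusted p = 0.00205), highest in WT day replicate 1 and rising by 1.79 without it. ELIP2 (AT4G14690) rose by 2.03 and PIF7 (AT5G61270) by 1.60. RUP1 and RUP2, repressors of the UV-B receptor, rose by 1.71 and 1.46, both on chromosome 5 and both lost without WT night replicate 3 (adjusted p up to 0.0596), RUP1 also without WT night replicate 2. The 2 falls were those of the blue-light receptors, CRY1 (AT4G08920) with 47.0, 56.1 and 57.3 TPM at day and 91.9, 92.6 and 103 TPM at night (log2 fold change -0.71, standard error 0.11, adjusted p = 0.00221) and CRY2 (AT1G04400) by 0.73 (adjusted p = 0.00369).

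The B-box zinc finger factors, many of which bind HY5, moved both ways, 7 of 14 up and 4 down, and the 4 falls became 1 without any 1 of the night libraries. BBX16 (AT1G73870) had 166, 149 and 168 TPM at day and 25.7, 25.0 and 33.9 TPM at night (log2 fold change 2.64, standard error 0.15, adjusted p = 2.91e-06). BBX24 (AT1G06040), a repressor of HY5 activity, had 322, 314 and 327 TPM at day and 62.6, 62.5 and 68.0 TPM at night (log2 fold change 2.44, standard error 0.13, adjusted p = 1.85e-06). BBX30 and BBX32 rose by 2.11 and 1.86, and all 4 genes had day libraries well above the night ones. COL9 (AT3G07650), a CONSTANS-like repressor of flowering, fell from 14.5, 14.7 and 15.7 TPM at night to 0.819, 0.836 and 0.750 TPM at day (log2 fold change -4.11, standard error 0.19, adjusted p = 7.34e-07). A B-box gene named only through the rule on largest falls, BBX14 (AT1G68520), had 12.2, 21.1 and 16.9 TPM at day and 169.7, 166 and 168 TPM at night (log2 fold change -3.19, standard error 0.18, adjusted p = 2.91e-06).

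Among 10 photoperiod and flowering genes, 2 rose and 5 fell, with a median of -0.543. CO (AT5G15840), the CONSTANS factor that activates flowering in long days, had 0.877, 0.648 and 0.409 TPM at day and 3.71, 4.10 and 3.05 TPM at night (log2 fold change -2.38, standard error 0.33, adjusted p = 0.00122, or -2.60 without WT day replicate 1). The CYCLING DOF FACTORs, which repress CO, were split. CDF3 (AT3G47500) and CDF5 (AT1G69570) rose by 1.98 and 1.41, whereas CDF2 (AT5G39660) fell by 1.67 and CDF1 (AT5G62430) by 0.60 (adjusted p = 0.0196), the last a call lost without WT day replicate 1 (adjusted p = 0.0543) and without WT night replicate 1 or 3 (adjusted p up to 0.0767). TEM1 and TEM2, further repressors of flowering, fell by 1.19 and 1.15.

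Most light-harvesting antenna genes rose. Of 20, which encode the chlorophyll a/b-binding proteins around both photosystems, 14 rose and 1 fell, with a median of 1.36. Together they took 61640, 50450 and 70620 TPM at day, against 32520, 31750 and 34430 TPM at night (two-sided exact permutation p = 0.1). LHCB2.2 (AT2G05070) had 1987, 1615 and 2619 TPM at day and 225, 225 and 239 TPM at night (log2 fold change 3.31, standard error 0.22, adjusted p = 6.91e-06). LHCB3 (AT5G54270) had 4883, 2472 and 3722 TPM at day and 720.3, 697 and 772 TPM at night (log2 fold change 2.46, standard error 0.20, adjusted p = 4.39e-05, or 2.26 without WT day replicate 1). LHCA4 (AT3G47470), of the antenna of photosystem I, had 2932, 2424 and 3594 TPM at day and 929, 902 and 1041 TPM at night (log2 fold change 1.77, standard error 0.16, adjusted p = 8.84e-05). All day libraries of these 3 genes lay at more than 2 times the highest night library. LHCB1.1 (AT1G29920) had the largest gain in TPM among the called genes, with 6372, 4757 and 7261 TPM at day and 1871, 2117 and 2098 TPM at night (log2 fold change 1.72). Transcripts of LHCB1.1, LHCB1.2 and LHCB1.3 and of LHCB2.1 and LHCB2.2 are near-identical, so the split of reads within these groups is uncertain. The exception was LHCB4.3 (AT2G40100), with 147, 222 and 282 TPM at day and 429, 449.9 and 445 TPM at night (log2 fold change -0.88, adjusted p = 0.0438), a call lost without any 1 library other than WT day replicate 3 (adjusted p up to 0.112).

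The nuclear genes of the photosystem cores and of electron transport changed far less. Of 33, 6 rose and none fell, with a median of 0.216, and their sum was 56360, 51390 and 70490 TPM at day and 56300, 55610 and 56320 TPM at night, so the groups overlapped (exact permutation p = 0.7). The 6 rises became 2 without any 1 of the night libraries and 3, with 1 fall, without WT day replicate 3. PSAD2 (AT1G03130), a subunit of photosystem I, rose with 484, 420.5 and 625 TPM at day and 207, 206 and 213 TPM at night (log2 fold change 1.42, standard error 0.17, adjusted p = 0.000439). PSAH2 (AT1G52230), of the same photosystem, rose by 0.81, while the calls of PSAN, PSAD1, PSAF and PGR5 were lost without any 1 of the night libraries. PSAN (AT5G64040), on chromosome 5, also lost its call without WT day replicate 1 or 3, PSAF without WT day replicate 3 and PGR5 without WT day replicate 2 or 3. The highest adjusted p of edgeR without 1 library was 0.0849 in PSAN, 0.104 in PSAD1, 0.119 in PSAF and 0.124 in PGR5. At an unadjusted p under 0.05, 13 were higher and 1 lower, DESeq2's Wald test called 9 and 1, and limma on log2(TPM + 1) called 3 and 1.

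In pigment synthesis, 4 of 24 chlorophyll and heme genes rose and 2 fell. The first committed step was among the rises, with HEMA1 (AT1G58290), a glutamyl-tRNA reductase, at 402, 315 and 421 TPM at day and 198, 181 and 217 TPM at night (log2 fold change 1.06, standard error 0.12, adjusted p = 0.000342). CHLH (AT5G13630), the large subunit of magnesium chelatase, had 1491, 749.7 and 1032 TPM at day and 479.9, 478 and 508 TPM at night (log2 fold change 1.27, standard error 0.18, adjusted p = 0.00158, or 1.04 without WT day replicate 1). PORB (AT4G27440), a protochlorophyllide reductase that itself needs light, fell with 70.2, 99.3 and 129 TPM at day and 386, 351 and 370.3 TPM at night (log2 fold change -1.75, standard error 0.25, adjusted p = 0.00143). None of these 3 genes overlapped between the groups. Of 19 isoprenoid and carotenoid genes 4 rose and 1 fell, and 3 fell without WT day replicate 3. BCH2 (AT5G52570), a carotene hydroxylase, had 175, 73.1 and 82.1 TPM at day and 16.8, 20.3 and 22.9 TPM at night (log2 fold change 2.56, standard error 0.26, adjusted p = 0.000195, or 2.12 without WT day replicate 1), and its highest level was in that library. ZEP (AT5G67030), which makes violaxanthin, rose by 1.16, and VDE (AT1G08550), which converts violaxanthin back in strong light, fell by 1.00 (adjusted p = 0.0101). Of the 11 plastid sigma and greening factors 3 rose and 1 fell, GLK2 (AT5G44190). Its call was lost without WT day replicate 2 or 3 or any 1 night library (adjusted p up to 0.111). Without WT day replicate 3, 2 other genes of the list fell. SIG5 (AT5G24120), a light-responsive sigma factor of plastid transcription, had 431, 249 and 300.1 TPM at day and 37.2, 33.5 and 49.9 TPM at night (log2 fold change 3.14, standard error 0.20, adjusted p = 5.24e-06, or 2.94 without WT day replicate 1). CGA1 (AT4G26150), a GATA factor that promotes greening, had 47.1, 40.6 and 44.7 TPM at day and 6.52, 10.09 and 6.84 TPM at night (log2 fold change 2.62, standard error 0.18, adjusted p = 9.78e-06).

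Of 21 starch breakdown genes 8 fell and 1 rose, with a median of -0.315 and a range of 8 to 11 falls when 1 library was left out. The sum of the list was 1423, 1643 and 1482 TPM at day and 2140, 2088 and 2455 TPM at night (exact permutation p = 0.1). PHS2 (AT3G46970), a cytosolic glucan phosphorylase, had 16.1, 18.0 and 21.7 TPM at day and 56.5, 54.8 and 61.5 TPM at night (log2 fold change -1.50, standard error 0.15, adjusted p = 0.000131). ISA3 (AT4G09020), which cuts the branch points, had 11.2, 11.4 and 12.5 TPM at day and 29.3, 27.9 and 36.4 TPM at night (log2 fold change -1.28, standard error 0.16, adjusted p = 0.000613). PHS1 (AT3G29320), the plastid phosphorylase, had 9.03, 10.5 and 13.6 TPM at day and 26.8, 26.3 and 29.0 TPM at night (log2 fold change -1.18, standard error 0.18, adjusted p = 0.00214). The groups of all 3 were apart. The disproportionating enzymes DPE1 and DPE2 fell by 1.08 and 0.67, and PWD (AT5G26570) and GWD1 (AT1G10760), which phosphorylate starch to open the granule, by 0.85 and 0.81. BAM1 (AT3G23920), the beta-amylase known for its role in guard cells and stress, was the 1 rise (0.46, adjusted p = 0.0311), lost without WT day replicate 1 (adjusted p = 0.0865) and without WT night replicate 1 or 2 (adjusted p up to 0.135).

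Of 16 starch synthesis genes 1 rose and 1 fell, with 2 rises without WT day replicate 2, 2 falls without WT night replicate 3 and 4 falls both in limma and in edgeR without WT day replicate 3. GBSS1 (AT1G32900), the granule-bound synthase that makes amylose and a known clock target, had 662, 459 and 576 TPM at day and 230.0, 215 and 382 TPM at night (log2 fold change 1.16, standard error 0.19, adjusted p = 0.00339), and the branching enzyme SBE3 (AT2G36390) had 22.7, 27.9 and 33.5 TPM at day and 61.1, 57.3 and 68.7 TPM at night (log2 fold change -1.02, standard error 0.16, adjusted p = 0.00285). Of 13 sucrose genes 1 rose and 2 fell, but none rose without WT day replicate 1 or any 1 night library, and the falls were 4 without WT day replicate 3 and 1 without any 1 night library. Among the falls SWEET12 (AT5G23660), an exporter that loads the phloem, had 18.8, 10.9 and 9.62 TPM at day and 50.6, 35.2 and 66.2 TPM at night (log2 fold change -1.84, standard error 0.34, adjusted p = 0.00678, or -2.14 without WT day replicate 1). The low-carbon response genes, which are induced in darkness and starvation, were split, 3 up and 5 down of 31, with 5 up without WT day replicate 2 or 3 and 1 up without WT night replicate 1 or 2. BT2 (AT3G48360) fell from 24.9, 28.4 and 8.19 TPM to 0.659, 1.11 and 0.412 TPM (log2 fold change -4.73, standard error 0.51, adjusted p = 0.00026), the second largest fall under the rule for named genes. TPS9 (AT1G23870), a trehalose phosphate synthase homologue, fell by 1.60 and bZIP63 (AT5G28770), a target of the energy sensor SnRK1, by 1.40. DIN9 (AT1G67070), a mannose-6-phosphate isomerase named for induction in the dark, rose with 9.55, 6.77 and 6.12 TPM at day and 1.39, 0.912 and 1.64 TPM at night (log2 fold change 2.61, standard error 0.25, adjusted p = 0.000107).

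Carbon fixation and photorespiration showed few calls. Of 23 Calvin-Benson-Bassham cycle genes edgeR called none higher and 2 lower, with a median of -0.0902. None was higher at an unadjusted p under 0.05, with DESeq2's Wald test or with limma, but edgeR called 1 higher without WT day replicate 2. Of 23 photorespiration genes 2 rose, with a median of -0.106. The 2 falls were CP12-2 (AT3G62410), a small regulator of the cycle, with 742, 956 and 1188 TPM at day and 1763, 1848 and 1703 TPM at night (log2 fold change -0.74, adjusted p = 0.045), and TKL1 (AT3G60750), a transketolase, by 0.55 (adjusted p = 0.0258), and both were lost without WT day replicate 1 (adjusted p = 0.105 and 0.0623) and without any other 1 library apart from WT day replicate 3, without which 7 genes of the list fell. The 2 rises were CAT2 (AT4G35090), the peroxisomal catalase of photorespiration, with 1729.7, 1470.4 and 1769 TPM at day and 1255, 1243 and 1352 TPM at night (log2 fold change 0.49, standard error 0.10, adjusted p = 0.0142), lost without WT night replicate 1 or 2 (adjusted p up to 0.0707), and GGAT2 (AT1G70580), an aminotransferase, by 0.58 (adjusted p = 0.0398), lost without any 1 library other than WT day replicate 2. Without WT day replicate 3 the photorespiration list had 1 rise and 7 falls, and without WT night replicate 1 or 2 it had no call. On log2(TPM + 1) with limma none of its genes rose and 4 fell. FBA5 (AT4G26530), an aldolase that the authors' table places in the cycle, fell more clearly, with 17.6, 32.2 and 48.2 TPM at day and 239, 226 and 289 TPM at night (log2 fold change -2.79, standard error 0.33, adjusted p = 0.000423). The authors' table assigns 56 tested genes to the TCA cycle, of which edgeR called none (2 higher and 7 lower at an unadjusted p under 0.05, 8 lower with limma on log2(TPM + 1), 4 lower with DESeq2's Wald test and 5 lower by edgeR without WT day replicate 2), and 27 to cytosolic glycolysis, of which HKL1 rose and HXK2 fell, both hexokinase genes and both lost in 3 or more alternatives. Summed over its 66 genes, the TCA category took 5903, 6187 and 5827 TPM at day and 6931, 6761 and 6958 TPM at night. Cytosolic glycolysis, with 33 genes, took 4234, 4093 and 4224 TPM at day and 5279, 5040 and 4625 TPM at night (exact permutation p = 0.1 for each). These sums are in TPM, and in limma on log2(TPM + 1) the median of all genes was shifted by -0.108. In the categories of the authors' table that match lists described here, 1 of 43 cycle genes rose and 5 fell, 1 of 28 photorespiration genes rose and 2 fell, and 1 of 24 nitrogen assimilation genes fell. Without WT day replicate 3 the falls in the first 2 of these categories were 11 and 10, without any other 1 library those of the cycle were 3, and those of photorespiration were 1 without any 1 night library, where the rise was also lost without WT night replicate 1 or 2.

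**Figure D4:**
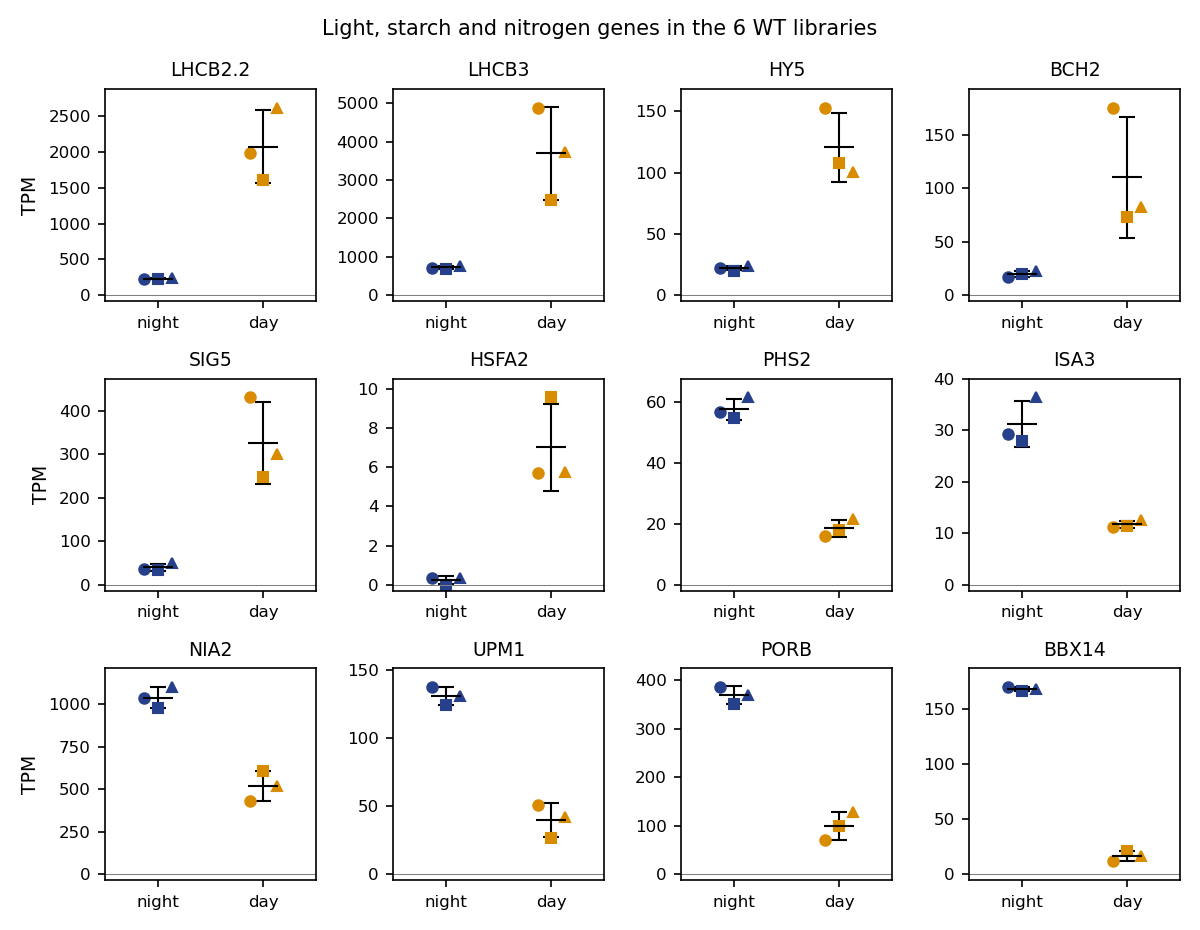
TPM of 12 genes of light harvesting, light signalling, starch and nitrogen metabolism in the 3 night and 3 day libraries of WT, with the mean and its standard deviation as bars. LHCB2.2, LHCB3, HY5, BCH2, SIG5 and HSFA2 lie higher at day, and PHS2, ISA3, NIA2, UPM1, PORB and BBX14 lie lower. BCH2 and SIG5 are highest in WT day replicate 1.

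Of 23 genes of nitrogen uptake and assimilation 9 fell, with a median of -0.325, while edgeR called none higher (1 at an unadjusted p under 0.05 and 1 with DESeq2's Wald test). Their sum was 1764, 1812 and 1764 TPM at day and 2986, 2909 and 2746 TPM at night (exact permutation p = 0.1), and 6 to 10 fell when 1 library was left out. In the authors' category of nitrogen assimilation and the GABA shunt, by contrast, 1 of 24 tested genes fell, with a median of -0.026. NIA2 (AT1G37130), the main nitrate reductase, had 432, 608 and 518 TPM at day and 1035, 977 and 1101 TPM at night (log2 fold change -0.87, standard error 0.14, adjusted p = 0.00299). UPM1 (AT5G40850), which makes the siroheme of nitrite and sulfite reductase, had 50.8, 26.6 and 42.3 TPM at day and 138, 124 and 131 TPM at night (log2 fold change -1.60, standard error 0.18, adjusted p = 0.000318, or -1.75 without WT day replicate 1). The nitrate transporter and sensor NRT1.1 (AT1G12110) had 77.3, 77.0 and 75.1 TPM at day and 112, 118 and 127 TPM at night (log2 fold change -0.52, standard error 0.08, adjusted p = 0.00343). In these genes the highest day library lay below the lowest night library. The nitrogen-responsive repressors LBD37 (AT5G67420) and HHO3 (AT1G25550) fell by 1.11 and 0.86, and the glucose-6-phosphate dehydrogenase G6PD3 (AT1G24280) by 1.101. GLN1.1 (AT5G37600), a cytosolic glutamine synthetase, fell by 0.96 (adjusted p = 0.0255), a call lost without WT night replicate 1 or 2 (adjusted p up to 0.102).

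Of 31 sulfate assimilation and low-sulfur genes 1 rose and 1 fell, and at most 3 rose or 2 fell when 1 library was left out. SAT1 (AT1G55920), a serine acetyltransferase of cysteine synthesis, had 43.6, 53.6 and 58.8 TPM at day and 37.8, 36.5 and 39.9 TPM at night (log2 fold change 0.58, standard error 0.15, adjusted p = 0.0389), lost without any 1 library other than WT day replicate 1. SULTR2.2 (AT1G77990), a sulfate transporter of the vasculature, had 7.85, 10.6 and 11.5 TPM at day and 21.6, 19.9 and 25.6 TPM at night (log2 fold change -1.03, standard error 0.18, adjusted p = 0.00522). Of 107 tested genes that the authors' table assigns to sulfur metabolism, 6 rose and 6 fell. These counts were 9 and 4 without WT day replicate 1, 6 and 13 without WT day replicate 2 and 4 and 4 without WT night replicate 1, and falls were also 4 without WT night replicate 3 and rises 4 without WT night replicate 2. The largest rises were those of glutathione S-transferases. ERD9 (AT1G10370) had 320.0, 239.6 and 283 TPM at day and 69.2, 79.9 and 73.4 TPM at night (log2 fold change 2.04, standard error 0.13, adjusted p = 6.91e-06) and GSTU28 (AT1G53680) rose by 2.54. Of 24 glucosinolate genes 1 rose, MYB34 (AT5G60890), a regulator of the indole branch, by 1.19 (adjusted p = 0.00863).

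Of 15 heat shock genes 8 rose, with a median of 1.03, and 5 of them without WT day replicate 1 or without WT night replicate 1 or 3. None was called lower by edgeR (1 at an unadjusted p under 0.05, 1 with limma on log2(TPM + 1), and 1 by edgeR without WT day replicate 2). Their sum was 123.5, 136.6 and 102.3 TPM at day and 49.4, 47.3 and 46.6 TPM at night (exact permutation p = 0.1). HSFA2 (AT2G26150), a heat-induced transcription factor, had 5.72, 9.58 and 5.77 TPM at day and 0.340, 0 and 0.355 TPM at night (log2 fold change 4.97, standard error 0.51, adjusted p = 0.000195). HSP70-4 (AT3G12580), a cytosolic chaperone, had 15.3, 25.8 and 14.4 TPM at day and 2.69, 1.93 and 3.44 TPM at night (log2 fold change 2.90, standard error 0.43, adjusted p = 0.00183). MBF1C (AT3G24500), a transcriptional coactivator of the heat response, had 29.6, 29.1 and 30.2 TPM at day and 7.23, 6.36 and 7.50 TPM at night (log2 fold change 2.20, standard error 0.14, adjusted p = 5.83e-06). All 3 were apart between the groups, and levels were even in MBF1C and highest in WT day replicate 2 in the other 2 genes. HSFB2B and HSP101 rose by 2.10 and 1.03, while HSP90.1, HSFB1 and ROF2 rose by 1.56, 1.05 and 1.01 with calls that were lost without WT day replicate 1 (adjusted p = 0.106, 0.0503 and 0.0508) and without 2 or more other libraries.

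Of 19 cold-responsive genes 4 rose and 2 fell, with 8 rises without WT day replicate 2 and 2 without WT night replicate 1 or 2. GOLS1 (AT2G47180), a galactinol synthase, had 119, 166 and 79.3 TPM at day and 14.3, 4.99 and 31.1 TPM at night (log2 fold change 2.98, standard error 0.56, adjusted p = 0.00741), and COR6.6 (AT5G15970) had 3037, 1741 and 2599 TPM at day and 899, 758 and 1090.2 TPM at night (log2 fold change 1.56, standard error 0.26, adjusted p = 0.00372, or 1.43 without WT day replicate 1). COR28 (AT4G33980), a cold-regulated gene that is tied to the clock, had 155 estimated counts in the night libraries together and was listed at 0 in each day library. Against a floor of 3 counts over the day group it was at least 66.0-fold lower at day. CBF2 (AT4G25470), a regulator of cold acclimation, fell by 1.65, a call lost without WT night replicate 1 or 2 (adjusted p up to 0.0578).

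Of 26 auxin and PIF-linked growth genes 4 rose and 4 fell, which became 2 and 2 without WT night replicate 1, 2 and 3 without WT night replicate 3 and 2 and 0 with the 6 WT libraries alone. PRE1 (AT5G39860), a helix-loop-helix protein that promotes elongation, had 17.3, 9.46 and 18.0 TPM at day and 3.33, 2.36 and 2.84 TPM at night (log2 fold change 2.52, standard error 0.45, adjusted p = 0.00574), and IAA17 (AT1G04250), an auxin response repressor, had 98.4, 66.0 and 86.0 TPM at day and 37.3, 33.1 and 31.7 TPM at night (log2 fold change 1.42, standard error 0.13, adjusted p = 0.000103), whereas the expansin EXPA1 (AT1G69530) fell by 0.88 and the homeobox gene HAT2 (AT5G47370) by 0.98. VTC2 (AT4G26850), the rate-controlling enzyme of ascorbate synthesis, rose with 1163, 1074 and 1078 TPM at day and 659, 617 and 875 TPM at night (log2 fold change 0.75, standard error 0.11, adjusted p = 0.00215) among 17 redox and ascorbate genes, of which 3 rose and 1 fell (2 without WT day replicate 2). MYB96 (AT5G62470), an activator of wax synthesis on chromosome 5, rose by 0.94, or 0.73 without WT day replicate 1. Without WT day replicate 2, 5 of 9 wax genes rose, against 3 with all libraries and 1 without any 1 night library, and the 1 fall of the list was lost without any 1 library other than WT day replicate 2. The other 2 rises of the list, CER3 and WSD1, were highest in WT day replicate 1, with 123, 37.0 and 42.2 TPM and 16.2, 2.11 and 7.34 TPM at day, and WSD1 lost its call without it (adjusted p = 0.095), while both lost it without any 1 night library (adjusted p up to 0.129 and 0.102). Of 20 phenylpropanoid and flavonoid genes 2 rose (6 without WT day replicate 2, and 1 without WT day replicate 3 or any 1 night library), among them MYB12 (AT2G47460), a flavonol regulator and HY5 target, with 3.08, 1.06 and 1.38 TPM at day and 0.291, 0.249 and 0.315 TPM at night (log2 fold change 2.77, standard error 0.43, adjusted p = 0.00255).

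Some of the largest changes fell outside the lists. LEA3 (AT1G02820), of a LEA protein family, had 327, 248 and 429 TPM at day and 20.5, 18.3 and 14.6 TPM at night (log2 fold change 4.37, standard error 0.24, adjusted p = 2.37e-06). AT3G53830, annotated as an RCC1 family protein, had 20.8, 19.3 and 19.1 TPM at day and 0.623, 0.476 and 0.501 TPM at night (log2 fold change 5.32, standard error 0.23, adjusted p = 6.70e-07), and CIPK20 (AT5G45820), a calcium-regulated protein kinase, had 7.78, 9.24 and 9.58 TPM at day and 0.574, 0.650 and 0.261 TPM at night (log2 fold change 4.30, standard error 0.33, adjusted p = 2.71e-05, or 4.42 without WT day replicate 1). Their day libraries were all at more than 10 times their night libraries. DIP2 (AT5G03210) had 121, 52.3 and 73.3 TPM at day and 2.40, 1.14 and 6.58 TPM at night (log2 fold change 4.68, standard error 0.50, adjusted p = 0.000264, or 4.36 without WT day replicate 1), with the highest value in WT day replicate 1, and 4.36 without it. Among the falls, CCL (AT3G26740), a clock-controlled gene whose mRNA is known to be short-lived, had 14.4, 20.2 and 26.0 TPM at day and 167, 181 and 234 TPM at night (log2 fold change -3.11, standard error 0.24, adjusted p = 2.64e-05). AT5G23240, annotated with a DnaJ domain, had 2.04, 2.23 and 1.51 TPM at day and 14.95, 18.7 and 20.8 TPM at night (log2 fold change -3.11, standard error 0.18, adjusted p = 2.99e-06). WCRKC1 (AT5G06690), a thioredoxin, fell by 2.60. By level rather than by ratio, the falls were led by CP12-2 and NIA2, followed by MT2A (AT3G09390), a metallothionein, with 657, 775 and 601 TPM at day and 1101, 1134 and 1210.1 TPM at night (log2 fold change -0.63, standard error 0.12, adjusted p = 0.0087). Also in that group were the cell wall proteins CWLP (AT3G22120), with 454, 436 and 307 TPM at day and 791, 862 and 712 TPM at night (log2 fold change -0.87, standard error 0.14, adjusted p = 0.00296), and GER3 (AT5G20630), a germin, with 204, 99.4 and 194 TPM at day and 505, 599 and 528 TPM at night (log2 fold change -1.59, standard error 0.31, adjusted p = 0.00877, or -1.71 without WT day replicate 1), and THIC (AT2G29630), the riboswitch-regulated enzyme of thiamin synthesis, which fell by 1.17 (adjusted p = 0.00941).

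Few genes were called in several further lists. None of 9 ribosome biogenesis genes and none of 10 cell division and shoot apex markers was called by edgeR, and the count was also 0 at an unadjusted p under 0.05 and with DESeq2's Wald test and limma. Of 297 genes that were taken as cytosolic ribosomal proteins from their short descriptions alone, edgeR called 4 higher and none lower (5 lower at an unadjusted p under 0.05, 2 with DESeq2's Wald test and 6 with limma on log2(TPM + 1)), and these 4 (AT5G12110, AT5G39850, AT5G20180 and AT5G08180) all lie on chromosome 5. The description of AT5G12110 also names an elongation factor, and that of AT5G20180 gives only an L36 protein, so the list may hold genes of other kinds. Without WT day replicate 1 edgeR called 5 genes of the list higher, without WT day replicate 2 8, and without any 1 of the night libraries 1 or 2, and AT5G20180 and AT5G08180 were among those lost without WT day replicate 1. Of 368 genes annotated as transposable elements, 2 were higher and 4 lower, with 8 and 4 without WT day replicate 1, 2 and 12 without WT day replicate 2, 3 and 2 without WT day replicate 3 and 1 and 2 without WT night replicate 1 or 2. Of 110 organelle-encoded genes edgeR, DESeq2 and limma called none (1 higher at an unadjusted p under 0.05, and 1 higher by edgeR without WT night replicate 2), with a median of 0.34 in libraries that were made by selecting polyadenylated RNA. Among 24 iron genes 2 rose and 1 fell, with 1 rise without WT night replicate 1 or 3, and among 20 touch and wound genes 1 rose, or 2 without WT day replicate 1.

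**Figure D5:**
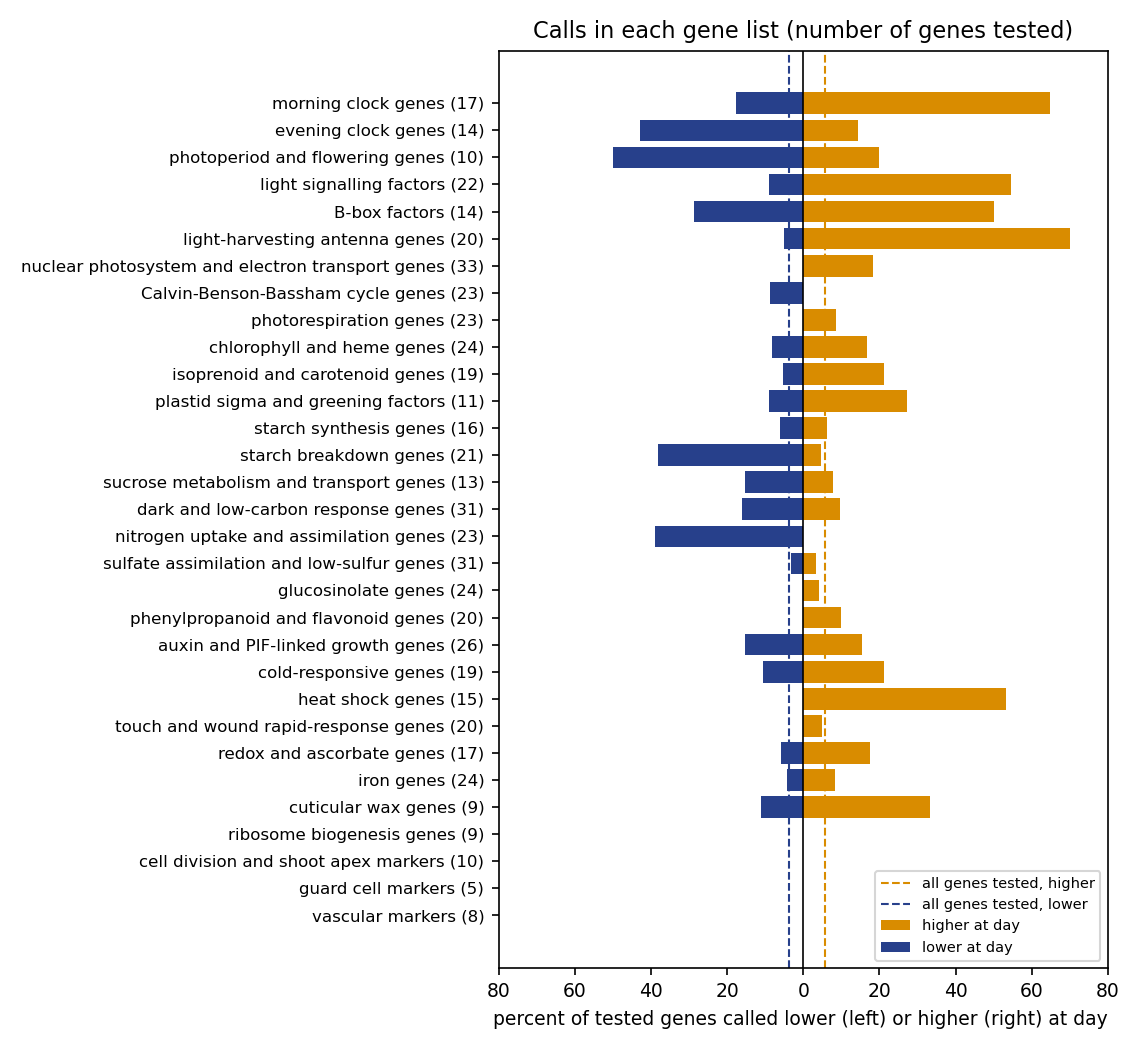
Percent of the tested genes of each list that were called higher (right) or lower (left) at day, with the number of tested genes in brackets. Dashed lines mark all genes tested, 5.58% higher and 3.88% lower. Antenna, morning clock, light signalling and heat shock genes lie farthest to the right, and photoperiod, evening clock, nitrogen and starch breakdown genes farthest to the left.

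Short sequence motifs near the start sites were counted on both strands, among them those that the clock and light factors above are known to bind. The window ran from 250 bases before to 50 bases after the start in RefSeq's annotation of TAIR10.1, which gave promoters for 20268 of the 20458 tested genes. The evening element (AAATATCT, or AGATATTT on the other strand), which CCA1, LHY and the REVEILLE proteins bind, was present in 127 of 793 genes called lower at day (16.0%), in 66 of 1135 called higher (5.81%) and in 1192 of all tested genes (5.88%). Among the genes that fell by at least 1 on the log2 scale it was present in 47 of 230 (20.4%). Of 14 evening clock genes 8 held it, of 21 starch breakdown genes 6, and of 19 cold-responsive genes, of which 4 rose and 2 fell, 7. The G-box (CACGTG, the same on both strands), which HY5 and the PIFs bind, was present in 178 of 1135 genes called higher (15.7%), in 78 of 793 called lower (9.84%) and in 1770 of all tested genes (8.73%), and in 12 of 17 morning clock genes. Among the genes that changed by at least 1 on the log2 scale it was present in 78 of 449 that rose (17.4%) and in 31 of 230 that fell (13.5%). Lists with few calls held it too, 12 of 33 photosystem genes and 9 of 24 iron genes. The I-box (GATAAG) was present in 20.3% of the lower, 12.4% of the higher and 14.9% of all tested genes, the motif TGGGCC in 12.7%, 13.3% and 18.7%, and the telo-box (AAACCCTA), found near many genes of the translation machinery, in 2.02%, 3.44% and 5.66%. The CCA1-binding site (AAAAATCT) was present in 9.21%, 8.99% and 8.0%, and the morning element (CCACAC) in 10.7%, 11.3% and 8.04%. The motifs are different strings of letters, but neighbouring matches may share bases. A match is a description of the letters and not a shown binding site.

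The following stretches of 30 bases show the evening element in genes that fell at day, with the motif in capitals on the strand of the gene, in clock, starch and pigment genes. They lie at chr5:24674801-24674830 (plus strand), chr5:24003834-24003863 (plus), chr2:9266569-9266598 (minus), chr3:11252643-11252672 (plus), chr4:5783859-5783888 (plus), chr5:9261435-9261464 (plus) and chr4:13725394-13725423 (plus).
TOC1: taaatatcatgAGATATTTtctccaagatg
NOX: atgcgggtaaaAGATATTTtagattatcta
GRP7: gtcccaagataAAATATCTtttctcgcatc
PHS1: ctttctctcagAAATATCTtcttcctctta
ISA3: ttcgtacaagaAGATATTTtccgggaaaat
PWD: tcatatttagaAGATATTTtatggacatgt
PORB: acattaaaataAAATATCTaaggagaagga

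In these genes the changes were -1.95, -2.72, -2.01, -1.18, -1.28, -0.85 and -1.75 on the log2 scale, in the order printed, and GRP7 held 3 evening elements in its window. The next set shows the G-box, again in capitals, in genes that rose. The stretches lie at chr2:19232423-19232452 (plus), chr1:190312-190341 (plus), chr3:3923362-3923391 (plus), chr3:17495104-17495133 (minus), chr5:21337260-21337289 (minus) and chr2:11135556-11135585 (plus).
PRR9: ttaggttaatgaCACGTGttaaggtggacc
RVE3: acgatcgtattcCACGTGgcaatttatgtg
LNK3: caaagagagtgtCACGTGtgcctagatatc
LHCA4: ccatttaattgaCACGTGtaacaacaatgg
BCH2: ggaagaagaggcCACGTGgagccattaaat
HSFA2: ttgtcttgtcgcCACGTGctcacataaatg

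The changes of these 6 genes were 12.49, 3.25, 2.88, 1.77, 2.56 and 4.97, in the order printed. PRR9 and LNK3 each held 2 G-boxes in the window. The genes were chosen for display with their values known.

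The bou-2 libraries covered the same interval in another genotype. Both contrasts came from the same fit of all 12 libraries, with scaling and spread estimated over both genotypes. The calls in WT and in bou-2 are thus not independent of each other. Of the 1142 genes called higher in WT, 1031 (90.3%) had the same sign in bou-2, 664 were called higher there too and 18 were called lower. Of the 794 called lower, 695 (87.5%) had the same sign, 386 were called lower and 13 higher. In bou-2, 7.68% of all tested genes were called higher and 7.69% lower. The median change of the WT-called genes was 0.855 in WT and 0.62 in bou-2 for the rises, and -0.714 and -0.459 for the falls. The genes were called on the WT contrast of this shared fit, and the counts and medians are given as a description. The change itself differed between the genotypes, by edgeR's test of the interaction, in 110 genes that were more positive in bou-2 (0.538%) and 132 that were more negative (0.645%).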

How the data were processed

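RNA-Seq was run on leaf material of WT and bou-2 plants, sequenced by the authors in paired 150 bp reads with 12 libraries to a lane. The deposited estimated counts come from the authors' kallisto 0.43.0 runs against the TAIR10 transcripts and were not normalized. The deposited TPM are the same kallisto output, scaled by the authors per library. Standard deviations of TPM that the authors deposited as another signal were not used. The authors' log2 ratios and sleuth 0.28.1 q-values hold their own comparisons and were not used. CASAVA is also named in the submitters' processing notes. Of 41415 lines 23 were repeats and were dropped, which left 41392 transcripts. No value column was left unassigned.

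Estimated counts were rounded and tested with edgeR 4.0.16 in R 4.3.3 by the quasi-likelihood test after TMM scaling, on all 12 libraries with 1 mean per group and 1 contrast, WT day against night. filterByExpr (minimum count 10, minimum total count 15, proportion 0.7) kept 26153 transcripts, and p-values were adjusted over these by Benjamini-Hochberg. The common dispersion of 0.0807 equals a biological coefficient of variation of 28.4%. A call means that the primary transcript of the gene had an adjusted p below 0.05. The library kit does not mark strand, so reads from a gene and its antisense partner cannot be told apart. Log2 fold changes and their standard errors are those of edgeR, levels are TPM. The scripts were tested on simulated data. The set of named genes holds the 15 largest rises and falls with a mean of at least 5 TPM and groups that did not overlap, the 10 largest changes in TPM each way, up to 8 called members of each list each way, and all clock genes. It also holds the genes chosen after their values had been seen, and not all of its members are described. The members, the 34 lists with 608 genes and the alternatives were chosen with earlier results of these data known. DESeq2 1.42.0 and limma 3.58.1 served as alternatives, with pseudocounts of 1 and 0.1.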

Additional observations from a re-analysis of the deposited data

Results flagged for a closer look

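For 21 of the named genes the change between night and day differed between bou-2 and WT by edgeR's test of the interaction, which is why they are set out here. The difference is the log2 change in bou-2 minus that in WT, and the WT libraries enter both this test and the comparison above.

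Of the 21, 8 kept an adjusted p under 0.05 when any 1 of the 12 libraries was left out. PRR7 changed by 5.10 in WT and 2.71 in bou-2, a difference of -2.40 (adjusted p = 0.00674). BBX16 changed by 2.64 in WT and 4.72 in bou-2, a difference of 2.08 (adjusted p = 0.0027). BBX25 fell in WT and rose in bou-2, by 0.71, a difference of 1.12 (adjusted p = 0.00583), and its call in WT alone was lost in 4 alternatives. SAT1 changed by 0.58 in WT and 2.71 in bou-2, a difference of 2.12 (adjusted p = 0.00281). NRT1.1 changed by -0.52 in WT and 0.78 in bou-2, a difference of 1.299 (adjusted p = 0.00228). TPS8, a trehalose phosphate synthase homologue, changed by -0.75 in WT and -2.88 in bou-2, a difference of -2.13 (adjusted p = 0.00947), and its call in WT alone was lost in 8 alternatives. AT5G23240 differed by 2.22 (adjusted p = 0.00298) and WCRKC1 by 1.55 (adjusted p = 0.00843), both falling less in bou-2.

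For the other 13 the difference was lost without 1 or more libraries. It was -4.39 in DIP2 and -4.88 in AT5G45630 (adjusted p up to 0.0559 and 0.0597), which changed by 0.29 and -0.66 in bou-2 without passing the test there (adjusted p = 0.723 and 0.425). In PIF4 it was -1.54, in LHCB2.2 -1.58, in RVE7 -0.95 and in EXPA1 -1.17 (adjusted p up to 0.0662, 0.0993, 0.124 and 0.133). The difference was positive in BBX31 (1.17), BBX18 (0.81), COL2 (1.21), GBSS1 (1.45), SPS4F (1.57), VTC2 (0.98) and the ferritin FER3 (0.83), with adjusted p up to 0.102, 0.119, 0.0908, 0.104, 0.111, 0.0802 and 0.0987. Each of these 13 was lost without at least 3 of the 12 libraries.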

How the results depend on the processing

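The count of 1142 higher and 794 lower genes was 424 and 267 when only the 6 WT libraries were fitted, 568 and 324 at an adjusted p under 0.01, 729 and 1607 with limma on log2(TPM + 1) and 725 and 1566 on log2(TPM + 0.1), where the median of all genes moved by -0.133, and 1655 and 1242 with DESeq2's Wald test. Without 1 library it ran from 617 to 1389 higher and from 419 to 1083 lower genes. With the replicate block it was 888 and 608, and same-numbered day and night libraries did not deviate together (r = -0.001, -0.062 and -0.041), so that the numbers were not taken as pairs. When the chromosome 5 counts of WT day replicate 1 were divided by their excess, an alternative added after seeing the data, 1296 and 1007 genes were called. Of the 202 named genes that were called, 120 were lost in none of the 19 alternatives at an adjusted p under 0.05 and 82 in 1 or more, and none turned its direction. Each alternative was read at 0.05 for these counts, so losses at the stricter threshold of 0.01 do not enter them. Of the 19 named genes not called, 8 passed in 1 or more with the direction of the main fit. PR4 and HCHIB also passed, as lower at day, without WT day replicate 2. Directions turned only in genes that were not called. Without WT day replicate 2 PDF1.2 was at -2.10, PDF1.2b at -1.95, PDF1.2c (AT5G44430) at -2.03, PDF1.3 at -2.17, PR4 at -1.62, HCHIB at -1.89 and OSM34 at -1.24 on the log2 scale, and limma gave -0.25 and -0.25 for PR4 and -0.39 and -0.44 for HCHIB with the pseudocounts of 1 and 0.1. Their highest values without 1 library were 4.52, 4.56, 5.64, 5.13, 1.97, 1.46 and 2.88. RVE4 ran from -0.37 to 0.025 without 1 library (0.0096 without WT day replicate 2), and LUX was at 0.026 with counts summed per gene. The cause was not tested. The shares called were lowest in genes under 1 TPM, 0.834% higher and 0.245% lower, and the part of depth in this was not tested.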

Other observations

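Transcripts other than the primary one were also tested. Of 5695 such transcripts 148 were called higher and 69 lower, and in 107 genes a secondary transcript was called while the primary was not. Among 4346 genes with 2 or more tested transcripts, 2 genes had transcripts called in opposite directions. SNG1 (AT2G22990), a sinapoyltransferase of phenylpropanoid metabolism, had its primary transcript at 0.57 (adjusted p = 0.0403, edgeR) and another at -1.38 (adjusted p = 0.0262) on the log2 scale. AT3G58030 had 0.32 (adjusted p = 0.0465) and -0.58 (adjusted p = 0.00759). Estimated counts of transcripts that share exons depend on how kallisto splits the reads, and this was not tested.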
